A study of Mus musculus with 3 samples.

Results

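The regions described here lay in introns and were recovered with PAM, a super-enhancer lncRNA annotated as Gm12603, in ChIRP-seq of mouse ASCs. Satellite cells are the muscle stem cells, and ASCs are their activated form. They were obtained by sorting from hindlimb muscle of Tg:Pax7-nGFP mice, which carry a nuclear GFP transgene driven by Pax7, and were cultured. No other treatment of the cells is given in the sources used here. An odd and an even pool of biotinylated probes against PAM were hybridized separately, with 1 library for each pool. An input library belongs to the series and was not analysed here. For each pool the authors deposited a list of mm9 regions of 1 fixed width, 254 bp in the odd pool and 248 bp in the even pool, with a whole-number score of at least 4. A region was counted as intronic when its midpoint lay within the span of at least 1 gene of any type in GENCODE M1 and on no exon of any transcript. By this rule 190 of 2112 odd regions (9.0%, 95% Wilson interval 7.85 to 10.3) and 62 of 345 even regions (18%, 14.3 to 22.4) were intronic, 252 of 2457 in all. No read counts come with the lists, so the depth behind them is unknown, and intervals on shares cover counting error only. Positions of 1 library are not replicates, so no test between pools or classes could be made, and the values below describe these libraries.

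Introns are the parts of a gene that are transcribed and then removed by splicing. They make up most of the length of mouse genes, and hold enhancers and promoters of shorter transcripts as well as simple sequence repeats, transposable elements and retrocopies, which are copies of spliced mRNAs that were written back into the genome without the introns of their parent gene. ChIRP uses antisense probes to pull down an RNA with the chromatin crosslinked to it, and a split into odd and even probes allows the DNA recovered by both to be separated from the DNA recovered by only 1 of them. A simple sequence repeat is a short unit written many times in a row, such as the AC dinucleotide, which reads as GT on the other strand.

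The sequences below, each from the plus strand of mm9, show kinds of intron sequence in the lists, and not all of them had high scores. Starts in the lists were taken as 0-based, and the printed starts count from 1. The first had the highest score of the intronic odd regions and consisted mainly of AC repeats. Capitals mark the longest unbroken stretch of the repeat.
1700007G11Rik, odd pool, chr5:99186173-99186426: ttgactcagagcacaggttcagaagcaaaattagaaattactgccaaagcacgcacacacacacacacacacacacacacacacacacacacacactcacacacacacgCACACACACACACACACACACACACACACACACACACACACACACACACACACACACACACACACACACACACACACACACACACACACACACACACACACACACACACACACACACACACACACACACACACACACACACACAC

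A pair from the odd pool was built from 6-base units. In the Gnao1 region capitals mark runs of at least 18 letters of the unit AGCAGG, here read from the other strand. In the Itga6 region they mark the longest stretch of the unit AGAGGC, and shorter blocks of that unit filled the rest of the region.
Gnao1, odd pool, chr8:96437930-96438183: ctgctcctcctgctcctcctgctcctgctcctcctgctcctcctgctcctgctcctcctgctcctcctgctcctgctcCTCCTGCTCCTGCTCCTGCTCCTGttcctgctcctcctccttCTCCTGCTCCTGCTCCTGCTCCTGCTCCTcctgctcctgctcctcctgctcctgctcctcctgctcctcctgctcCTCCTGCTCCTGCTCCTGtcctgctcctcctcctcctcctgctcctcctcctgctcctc
Itga6, odd pool, chr2:71615378-71615631: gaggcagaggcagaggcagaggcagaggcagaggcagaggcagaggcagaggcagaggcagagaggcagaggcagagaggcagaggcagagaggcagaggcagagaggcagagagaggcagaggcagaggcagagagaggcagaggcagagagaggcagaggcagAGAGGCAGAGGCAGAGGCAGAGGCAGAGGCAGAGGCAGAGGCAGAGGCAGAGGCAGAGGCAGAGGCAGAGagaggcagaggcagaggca

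The highest-scoring intronic region of the odd pool that matched a spliced transcript of another gene lay in the lincRNA gene 1700030G06Rik and matched Pkm2, which encodes the muscle-type pyruvate kinase. Capitals mark 20 bases over each of the 2 exon-exon junctions of Pkm2 that the region crosses, with the Pkm2 strand running opposite to the printed one.
1700030G06Rik, odd pool, chr5:22231576-22231829: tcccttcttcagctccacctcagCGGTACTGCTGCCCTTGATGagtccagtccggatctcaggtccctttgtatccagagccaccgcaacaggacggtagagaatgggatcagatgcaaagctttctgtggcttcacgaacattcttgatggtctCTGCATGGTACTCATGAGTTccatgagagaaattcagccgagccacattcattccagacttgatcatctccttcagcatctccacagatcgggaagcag

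The next 4 are the intronic loci recovered with both pools that were not AC repeats, and capitals mark the part covered by a region of each pool. Runx1 encodes a transcription factor, Camk1d a calcium/calmodulin-dependent kinase, and Chl1 a neural cell adhesion molecule. Filip1l encodes a filamin A interacting protein 1-like protein.
Runx1, even pool, chr16:92825456-92825703: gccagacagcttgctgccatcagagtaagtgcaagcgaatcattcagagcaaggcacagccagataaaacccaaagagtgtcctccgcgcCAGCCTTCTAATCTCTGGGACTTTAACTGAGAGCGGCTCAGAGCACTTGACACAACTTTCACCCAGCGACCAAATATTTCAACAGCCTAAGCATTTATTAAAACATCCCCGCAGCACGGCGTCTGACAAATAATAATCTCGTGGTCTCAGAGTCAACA
Camk1d, even pool, chr2:5300237-5300484: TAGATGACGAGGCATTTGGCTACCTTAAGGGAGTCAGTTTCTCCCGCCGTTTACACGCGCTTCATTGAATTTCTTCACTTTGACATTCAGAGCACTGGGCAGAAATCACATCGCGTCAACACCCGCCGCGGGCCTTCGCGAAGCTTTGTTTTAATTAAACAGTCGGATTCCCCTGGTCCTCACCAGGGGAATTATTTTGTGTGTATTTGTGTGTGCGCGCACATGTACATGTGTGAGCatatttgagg
Chl1, even pool, chr6:103599099-103599346: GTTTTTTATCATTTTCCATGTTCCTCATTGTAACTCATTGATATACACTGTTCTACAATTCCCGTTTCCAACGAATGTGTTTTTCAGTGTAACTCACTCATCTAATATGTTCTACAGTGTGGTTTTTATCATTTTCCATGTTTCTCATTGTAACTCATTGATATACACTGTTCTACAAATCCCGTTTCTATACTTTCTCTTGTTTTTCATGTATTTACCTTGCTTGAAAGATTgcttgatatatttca
Filip1l, even pool, chr16:57391518-57391765: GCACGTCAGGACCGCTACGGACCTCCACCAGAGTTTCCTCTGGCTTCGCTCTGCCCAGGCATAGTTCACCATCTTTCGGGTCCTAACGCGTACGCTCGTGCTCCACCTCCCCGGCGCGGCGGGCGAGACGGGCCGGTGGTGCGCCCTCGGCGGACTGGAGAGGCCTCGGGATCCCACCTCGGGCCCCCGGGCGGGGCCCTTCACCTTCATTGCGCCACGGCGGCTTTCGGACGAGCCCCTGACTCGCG

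Intronic regions had low scores in both lists. What the score counts is not given in the sources used here, and it was read only within each list. In the odd pool the intronic regions had a median score of 4 with quartiles of 4 and 5 and a highest score of 26, against a median of 6 for the 1680 exonic and 5 for the 242 intergenic regions. The lowest score, 4, was held by 106 of 190 intronic odd regions (55.8%, 48.7 to 62.7), by 23.5% of exonic and by 46.3% of intergenic odd regions. In the even pool the intronic median was 4 with a highest score of 21, and 48 of 62 intronic regions (77.4%, 65.6 to 86) held the lowest score, against 30.3% of 198 exonic and 58.8% of 85 intergenic regions. The share of intronic regions was thus highest among the regions that only just entered each list. Of the odd regions, 106 of 613 at a score of 4 were intronic (17.3%, 14.5 to 20.5), 72 of 1087 at 5 to 9 (6.62%, 5.29 to 8.26) and 12 of 412 at 10 or more (2.91%, 1.67 to 5.02). The even pool gave 48 of 158 (30.4%, 23.7 to 37.9), 10 of 137 (7.30%, 4.01 to 12.9) and 4 of 50 (8.00%, 3.15 to 18.8), so only the interval of the lowest score stood apart from the others there.

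**Figure D1:**
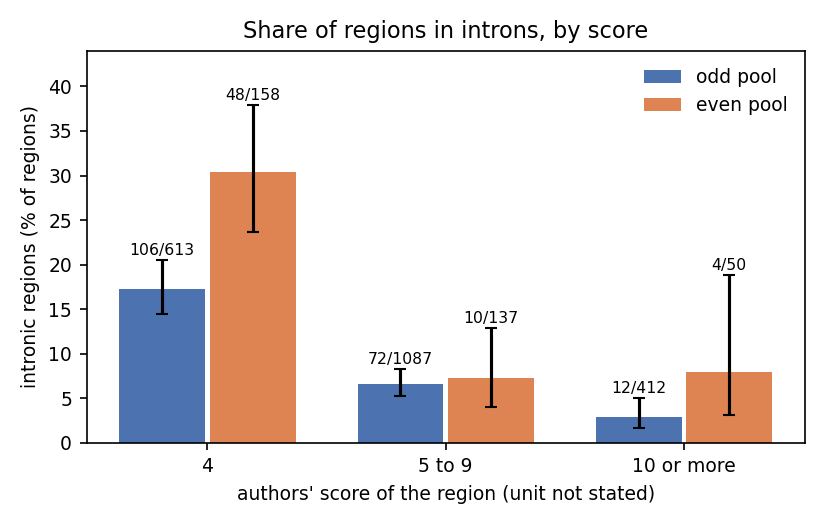
Share of regions that were intronic (y axis, % of regions) by the authors' score (x axis), with a bar for each pool, the 95% Wilson interval as error bar and the counts above. The share was 17.3% and 30.4% at the lowest score in the odd and the even pool, and lower at higher scores.

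Introns took a smaller share of both lists than of the genome. When mm9 was tiled into 10061606 windows of 254 bp without unknown bases, 37.8% of windows were intronic by the same rule, 3.40% exonic and 58.8% intergenic. The intronic regions lay on all 20 of the chromosomes 1 to 19 and X in the odd pool and on 17 of 20 in the even pool. Their base composition differed between pools. The median GC content of the intronic odd regions was 53.94%, above that of the exonic odd regions at 48.82%, while the intronic even regions had 46.98% and all intronic windows 42.5%. Intergenic regions had a median of 50.79% in the odd and 46.77% in the even pool.

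Simple sequence repeats were frequent in the intronic regions. A perfect tandem repeat of at least 30 bp, with a unit of 1 to 6 bases, was present in 76 of 190 intronic odd regions (40.0%, 33.3 to 47.1), against 9.61% of all odd regions, 0.417% of exonic and 49.6% of intergenic ones. Of the intronic even regions, 16 of 62 held one (25.8%, 16.6 to 37.9), against 14.8% of all even regions, 0.505% of exonic and 40.0% of intergenic ones. Among the intronic windows of the genome the share was 4.48%. Intronic regions of both pools therefore held such repeats more often than introns in general, and in this they were like the intergenic regions of the same list and unlike the exonic ones.

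The unit of the repeat differed between pools. The unit AGAGGC, in any of its rotations and on either strand, made up a perfect stretch of at least 30 bp in 40 of 190 intronic odd regions (21.1%, 15.9 to 27.4) and in 50 of 242 intergenic odd regions (20.7%, 16 to 26.2). No exonic odd region held it, which allows a share of up to 0.179%. No intronic even region held it either, 0 of 62, which allows a share of up to 4.84%, nor did any of the 345 even regions, which allows up to 0.87%. Of 3800201 intronic windows, 728 held it, or 0.0192%. The stretch was 31 to 141 bp long in the 40 regions, with a median of 92 bp, which is far above the limit set for the search. These regions lay in 39 host genes on 13 chromosomes, had a median GC content of 60.04%, and had scores of 4 to 8 with a median of 5. The unit AGAGGC was on the strand of the host gene in 16 and on the other strand in 24, so it was present in both orientations.

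A search for shorter runs widened this group. Runs of 18 letters in a row of AGAGGC, in any rotation and on both strands, were present in 59 intronic odd regions (31.1%, 24.9 to 38), in 57 intergenic ones (23.6%) and in 0.0610% of intronic windows. The related unit AGCAGG, searched in the same way, was present in 11 intronic odd regions (5.79%, 3.26 to 10.1), in 19 intergenic ones (7.85%) and in 0.00445% of intronic windows. A run of 18 letters cannot be of both units, and no intronic region held a run of each, so 70 of 190 intronic odd regions (36.8%, 30.3 to 43.9) held 1 of these 2 hexamers. No exonic odd region and no even region of any class did. These 70 regions were spread over 17 chromosomes, had a median score of 5 and a highest score of 16, and 26 of them had a sequence present once in the genome by the median of their 31-letter words. A match of these letters is a description of the sequence.

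The highest scores among hexamer regions were those of Gnao1 with a score of 16 and Cdk18 with 12, both AGCAGG, and Wdr19 with 11, AGAGGC. Gnao1 encodes a G protein alpha subunit, Cdk18 a cyclin-dependent kinase and Wdr19 a protein of intraflagellar transport. D030054H15Rik (AGCAGG), Pfkfb4 and Atg4a (both AGAGGC) had a score of 10. Pfkfb4 encodes an enzyme that sets the level of fructose-2,6-bisphosphate, and Atg4a a protease of autophagy. Hexamer runs were thus held by 6 of the 12 intronic odd regions with a score of at least 10, and AC runs by 2 more.

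AC repeats, unlike the hexamers, were found with both pools. A perfect AC repeat of at least 30 bp was present in 22 of 190 intronic odd regions (11.6%, 7.77 to 16.9), with lengths of 31 to 157 bp and a median of 50 bp. Such a repeat was also present in 12 of 62 intronic even regions (19.4%, 11.4 to 30.9), with lengths of 36 to 133 bp and a median of 56 bp. The intergenic shares were 16.9% in the odd and 30.6% in the even pool, the exonic ones 4 of 1680 and 0 of 198, and 1.73% of intronic windows held such a repeat. AC runs of 18 letters, on both strands, were present in 28 intronic odd regions (14.7%), in 14 intronic even regions (22.6%) and in 2.93% of intronic windows. Tandem repeats of other units were few. In the odd pool there were 14 such regions, 4 of them of the unit AG, and in the even pool 4, each of a different unit.

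**Figure D2:**
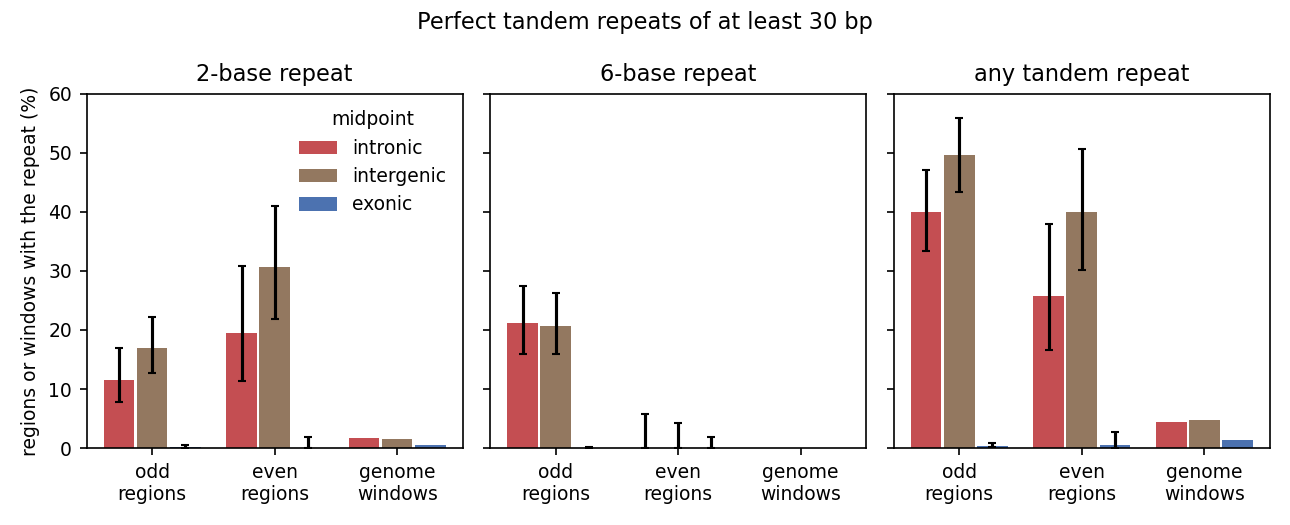
Share of regions or genome windows (y axis, %) with a perfect tandem repeat of at least 30 bp, for the dinucleotide AC (left), the hexamer AGAGGC (middle) and any unit of 1 to 6 bases (right), by pool and by where the midpoint lay, with 95% Wilson intervals on regions. The hexamer was present in 21.1% of intronic odd regions and in no even region, and AC in 11.6% and 19.4% of intronic odd and even regions.

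The annotated PAM transcripts held none of these repeats at 30 bp or more. The study cloned a longer form by RACE, and neither that form nor any other form of PAM was searched. The longest perfect tandem stretch in either annotated PAM transcript, 418 and 618 nt after splicing, was 11 bp, and in the 6 probes of 20 nt it was 7 or 8 bp. The longest exact match between an intronic odd region and any probe, on either strand, had a median of 7 letters and a maximum of 11, and for intronic even regions the median was 8 and the maximum 13. Exonic regions gave medians of 7 and 8 and maxima of 13 and 11. Regions with an AGAGGC run had a median match of 7 and a maximum of 11 letters, the same values as for the intronic odd regions as a whole. Against the annotated PAM transcripts their exact matches had a median of 8 and a maximum of 13 letters, again as for all intronic odd regions. All probes were compared with both lists, because the sources used here do not say which probe was in which pool.

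Intron sequence that occurs many times in the genome was frequent in the odd pool. For each region all words of 31 letters were counted in mm9, and the median of these counts was taken as its number of copies. A median of at least 2 copies was found in 80 of 190 intronic odd regions (42.1%, 35.3 to 49.2), against 16.5% of all odd regions, 9.88% of exonic and 42.6% of intergenic ones. The even pool had 13 of 62 (21.0%, 12.7 to 32.6), against 19.4% of all even regions, 14.6% of exonic and 29.4% of intergenic ones. The intronic share was therefore near the share over all regions in the even pool and above it in the odd pool. At least 10 copies were found in 49 intronic odd regions (25.8%, against 5.26% of all odd regions) and in 9 intronic even regions (14.5%, against 7.54% of all even regions). The authors kept uniquely mapped reads, and the part that read placement in repeated sequence has in these regions was not tested.

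Regions were then placed in 1 group each, first by a tandem repeat of at least 30 bp, then by a transcript match, then by the number of copies. Single-copy sequence with none of these features made up 68 of 190 intronic odd regions (35.8%, 29.3 to 42.8) and 40 of 62 intronic even regions (64.5%, 52.1 to 75.3). It was thus the larger part of the even introns and a smaller part of the odd ones. Repeats shorter than 30 bp did not remove a region from this group, so it was not free of the units described above. For example, the odd region in Atg4a held an 18-letter run of AGAGGC, and the even region in Sergef one of AC. Scores in this group were low, with a median of 4 in both pools, and 24 of 68 odd and 7 of 40 even regions were above the lowest score. Those 7 even regions lay in Runx1, with a score of 15, in Camk1d with 7, in Chl1 with 6, and in Itgb3, Rptor, 1700030G06Rik and Tcta with 5 each. Itgb3 encodes integrin beta 3 and Rptor the raptor subunit of the mTORC1 kinase complex. The number of copies rests on exact words, so sequence with copies that differ in some letters can be in this group. The Camk1d locus matched 12 other places in the genome, the best with 96.9% identity over 160 bp. The Chl1 locus matched 7 other places, the best with 95.7% identity over 210 bp. In the odd pool the AGAGGC regions and the other repeated regions had a median of 5, above the lowest score, and all other groups had a median of 4.

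**Figure D3:**
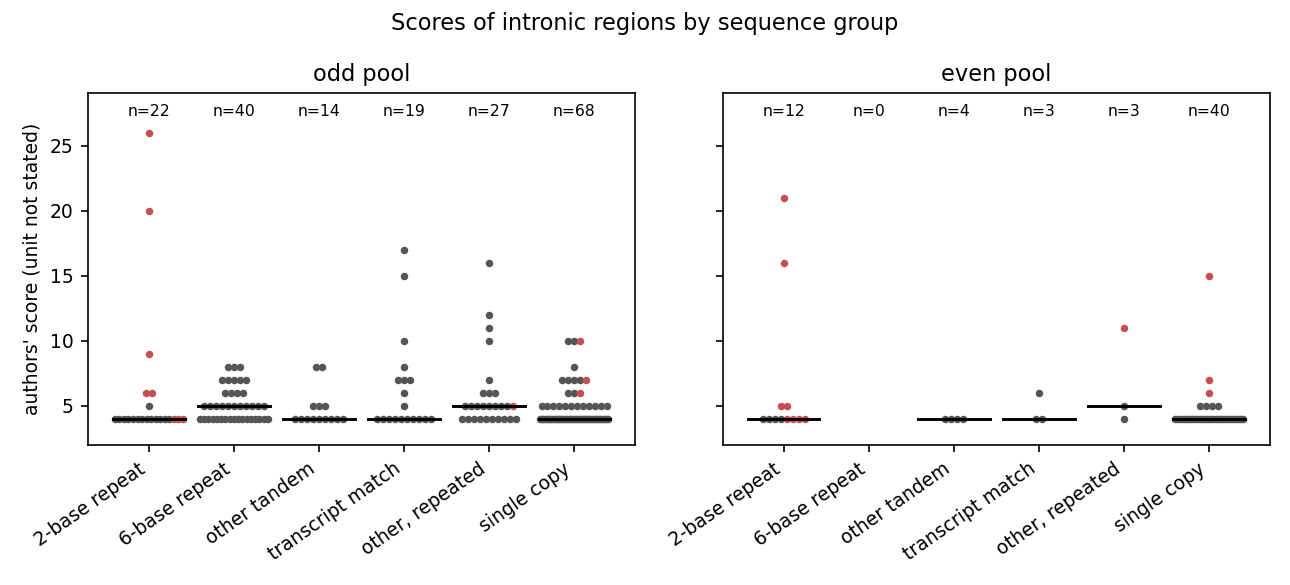
Authors' score (y axis) of each intronic region by sequence group (x axis; 2-base repeat is AC and 6-base repeat is AGAGGC, each of at least 30 bp), with the number of regions above, the group median as a line and regions that overlapped a region of the other pool in red. The 2 highest scores in each pool were those of AC repeats shared by the pools, and the single-copy group had a median of 4 in both pools.

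A further group had the structure of retrocopies. A match of at least 90% identity over at least 125 bp to a spliced protein-coding transcript, with low-complexity sequence filtered, was found for 19 of 190 intronic odd regions (10.0%, 6.5 to 15.1), against 81.0% of all odd regions and 98.2% of exonic ones. Such a match was found for 3 of 62 intronic even regions (4.84%, 1.66 to 13.3), against 60.3% of all even regions and 98.0% of exonic ones. The counts were 66 and 11 without the filter on low-complexity sequence, and 42 and 5 when only protein-coding genes defined introns and exons. A low share is built into the rule, since these regions have their midpoints off every exon. Of the 19 odd matches, 15 ran across at least 1 exon-exon junction of a gene other than the host, 9 of them across 2 junctions, over at least 240 bp and with an identity of 93.5 to 100%. Contiguous genomic sequence with the exons of another gene joined end to end is the structure of a retrocopy. The 15 regions matched 14 parent genes and had a median score of 6, and 5 of them had a sequence of 1 copy. None overlapped an even region.

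The highest scores in this group were those of the region pair in 1700030G06Rik, which both matched Pkm2. The pair lay 770 bp apart in intron 9 of this lincRNA gene, and the regions had scores of 17 and 15 and identities to Pkm2 of 98.0% and 99.2%. Pkm2 itself had 4 exonic odd regions, with a highest score of 33. A region in Ddah1, the gene of an enzyme that breaks down methylarginines, had a score of 10 and was identical over 254 bp to the transcript of the ribosomal protein gene Rpl36a, with 10 other matches in the genome. Ldha, which encodes lactate dehydrogenase A, was matched by a region in the protocadherin gene Pcdh9 with 95.3% identity and a score of 7, and had an exonic odd region with a score of 13. Cnn3, the gene of calponin 3, was matched by a region in Abcb4 with a score of 4, and its exonic odd region had a score of 18. Among even regions Tpi1, the gene of triose phosphate isomerase, was matched by a region in 9330179D12Rik, with 98.4% identity over 248 bp, 2 junctions and a score of 4. The remaining parents of the odd pool were Set, Gstp2, Vdac2, Ost4, Eef1b2, Nono, Btf3l4, Eif4a2, Ncaph2 and Ube2s, with scores of 4 to 8. They include genes of translation, such as the elongation factor subunit Eef1b2 and the initiation factor Eif4a2, and the mitochondrial channel gene Vdac2.

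Of the 14 parent genes of the odd junction matches, 6 had an exonic odd region of their own, and of 22238 protein-coding gene names 1268 did (5.70%). With sequence nearly identical to the parent transcript, reads of 1 copy cannot always be told from those of another, and the part of read placement in these scores was not tested. The other 4 odd matches crossed no junction. The region in Tspan17 matched its own gene, because part of it overlapped an exon beside its midpoint, and those in 1110008L16Rik, Rhpn2 and Rnf121 matched over 125 to 154 bp with 90.3 to 91.3% identity and had between 53 and 435 other matches in the genome. Of the even matches, 2 crossed a junction, those in 9330179D12Rik and Gm16869. The match in Gm16869 crossed 1 junction of Gm10718, in sequence of 29 copies with 150 other genome matches. The even match in Osbpl7 crossed no junction and had 228 other genome matches.

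**Figure D4:**
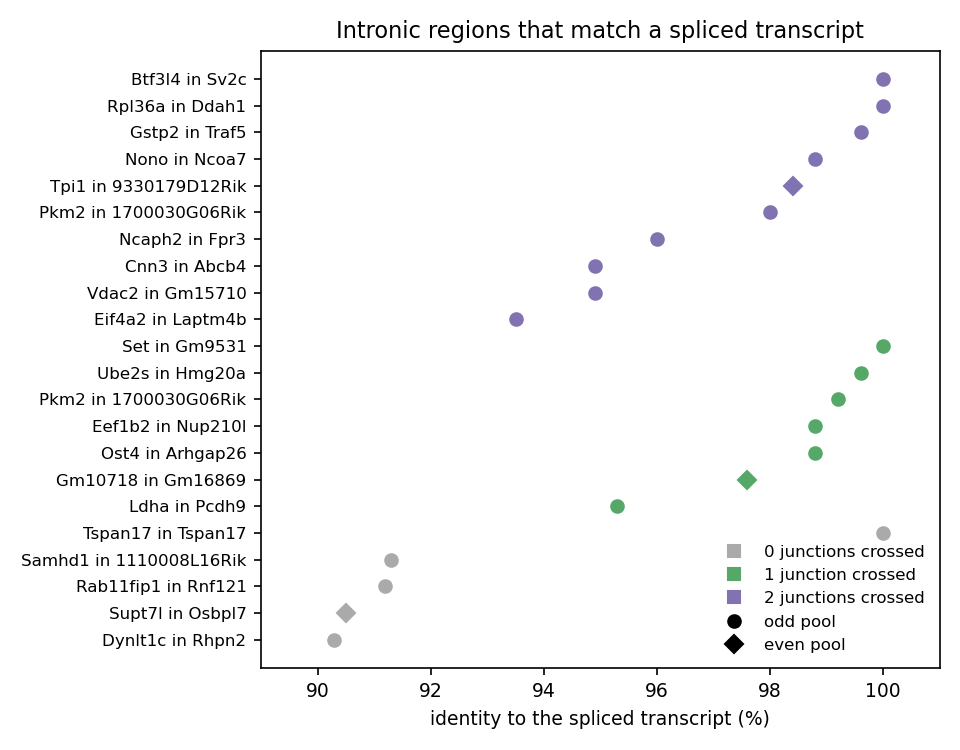
Identity (x axis, %) of each intronic region to the spliced transcript it matched, labelled as parent gene in host gene, with the number of exon-exon junctions crossed as colour and the pool as symbol. The 15 odd regions that crossed a junction had identities of 93.5 to 100%, and 3 of the 4 odd regions that crossed none lay between 90.3 and 91.3%.

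The pools overlapped at 12 intronic loci. By an overlap of at least 1 bp, 12 of 190 intronic odd regions overlapped an even region (6.32%, 3.65 to 10.7), against 6.96% of all odd regions, 6.90% of exonic and 7.85% of intergenic ones, so the intronic share was near the background. In the even pool 12 of 62 intronic regions overlapped an odd region (19.4%, 11.4 to 30.9), against 42.6% of all even regions, 58.6% of exonic and 22.4% of intergenic ones, so intronic even regions were shared less often than even regions as a whole. The partner was intronic in all 12.

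Most of the 12 loci were AC repeats. An AC repeat of at least 30 bp was present in both pools' regions at 8 of them. At 1700007G11Rik the odd region scored 26 and the even region 16. Snd1, the gene of a nuclease and transcriptional coactivator, had scores of 9 and 5. The sodium/calcium exchanger gene Slc8a1 had 6 and 4, and the ankyrin gene Ank2 had 6 and 5. Sos2, which encodes a guanine nucleotide exchange factor of Ras, Bckdhb, which encodes a subunit of branched-chain ketoacid dehydrogenase, and Gm14004 had 4 in each list. The scores of AC loci thus covered a wide range, and 3 of them were at the lowest score in both lists.

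AC repeats were shared more often than other intronic sequence. Of the intronic odd regions with an AC repeat, 8 of 22 overlapped the even pool (36.4%, 19.7 to 57), against 4 of 168 of the other intronic odd regions (2.38%, 0.93 to 5.96). Of the even ones, 8 of 12 overlapped the odd pool (66.7%, 39.1 to 86.2), against 4 of 50 (8.00%, 3.15 to 18.8). The same 8 and 4 loci give the counts of both pools, so the pools are not separate evidence, and the intervals cover counting error only. Among intergenic regions, 7 of 41 odd and 7 of 26 even AC repeats were shared. Of all intergenic regions, 19 of 242 odd and 19 of 85 even ones were shared, so the contrast was smaller there, above all in the even pool. Shared AC repeats had a median length of 85 bp and a median score of 6 in the odd pool, and those of the odd pool alone 46 bp and a score of 4. Even AC repeats had medians of 70 bp and 4.5 when shared and of 46.5 bp and 4 when not. The ranges of length overlapped, with 36 to 157 bp for shared and 31 to 114 bp for unshared odd AC repeats.

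The other 4 shared loci held no such repeat. The Runx1 locus lay in intron 2 of 8, the odd region scored 10 and the even region 15, and both regions covered 158 bp in common at chr16:92825546-92825703. Runx1 is on the minus strand, and the midpoints of the regions lay 583 and 676 bp downstream of a Runx1 transcript start at 92826256. The gap to the nearest exon was 34 bp from the odd and 130 bp from the even region, and the gene also had 1 exonic odd region. This was the sole shared intronic locus with neither an AC repeat nor a match of at least 125 bp elsewhere in the genome. It was also the one intronic odd region with a score of at least 10 that held neither an 18-letter run of the 3 units nor a transcript match.

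Camk1d, Chl1 and Filip1l matched other places in the genome at 90% identity or more. Matches were counted in the mm9 assembly, so copies absent from it were not counted. Transcript matches were sought among protein-coding transcripts only. Noncoding RNAs other than PAM, such as ribosomal RNAs, were not searched, so a match of these loci to one of them was not tested. The Camk1d locus, with a score of 7 in each list, matched 12 places, and the best match, chr3:5860338-5860497 with 96.9% identity over 160 bp, was at an intergenic region of both lists, with scores of 8 and 10. The Chl1 locus, with a score of 6 in each list, matched 7 places, all on chromosome 2, and the best was chr2:98506458-98506666 with 95.7% identity over 210 bp. Within 2000 bp of that match lay 1 odd region with a score of 67 and 2 even regions, the higher with a score of 66. The Filip1l locus, with scores of 5 and 11, matched 3 places on chromosomes 12, 15 and 3, the best with 96.1% identity over 254 bp, and no region of either list lay within 2000 bp of them. The Chl1 region itself matched 1 of those even regions, with a score of 14, at 98.1% identity over 155 bp. At Camk1d and Chl1 the sequence was thus close to that of regions recovered elsewhere, and the part of read placement was not tested.

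**Figure D5:**
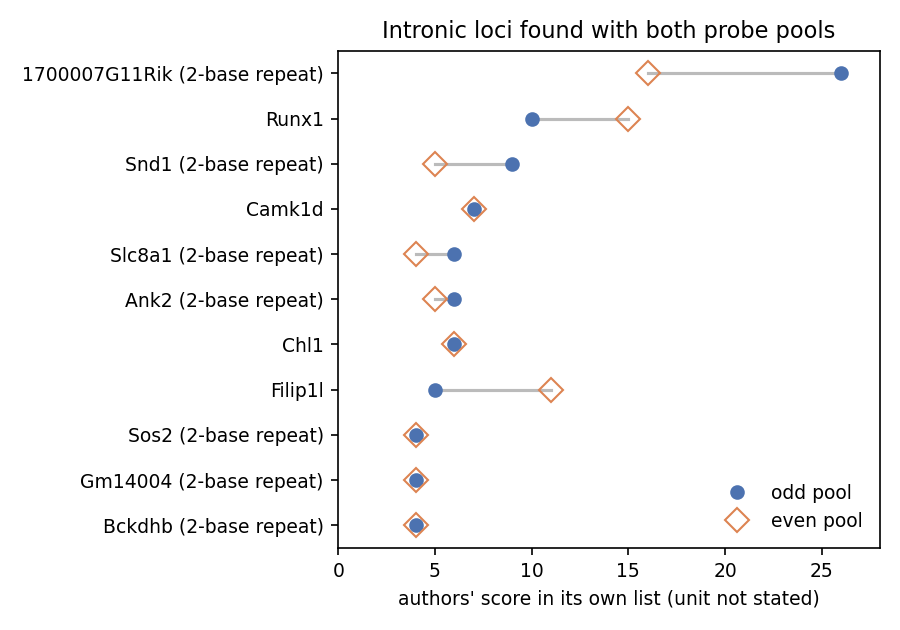
Authors' score (x axis) of the odd and the even region at the named intronic loci recovered with both pools (y axis, host gene), each score read within its own list. Loci with an AC repeat are marked as 2-base repeat and range from 4 in both lists to 26 and 16 at 1700007G11Rik.

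Shared regions had higher scores than unshared ones in each list. The median was 6 for the 12 shared and 4 for the other 178 intronic odd regions, with 9 of 12 and 75 of 178 above the lowest score. The even median was 5.5 for the 12 shared and 4 for the other 50, with 8 of 12 and 6 of 50 above the lowest score. The odd and even scores ranked the 12 loci alike, with a Spearman correlation of 0.81 (n = 12), given as a description, since both regions of a locus share position and sequence.

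Host genes of intronic regions were long. The 190 odd regions lay in 185 genes, with 174 regions in protein-coding genes, 7 in lincRNA genes, 6 in genes of processed transcripts and 3 in pseudogenes. The 62 even regions lay in 62 genes, with 56 regions in protein-coding genes. The median span of the protein-coding hosts was 95.1 kb in the odd and 123.1 kb in the even pool, against 22.8 and 17.4 kb for genes with an exonic region of that pool and 15.4 kb for all 22350 protein-coding genes. The span of hosts expected from introns at large was not computed. First introns held 39 of 174 odd regions in protein-coding hosts (22.4%, 16.9 to 29.2) and 10 of 56 even ones (17.9%, 10 to 29.8), and 20.4% of the intron bases of protein-coding genes were in first introns, a share inside both intervals.

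Most intronic regions lay far from exons. The median distance to the nearest exon was 2294 bp in the odd pool, with quartiles of 569 and 8729 bp, and 1930 bp in the even pool, with quartiles of 620 and 8192 bp. More than 500 bp separated 146 of 190 odd regions (76.8%, 70.3 to 82.3) and 49 of 62 even regions (79.0%, 67.4 to 87.3) from the nearest exon, and 80.7% of intronic windows. Their distance from exons was therefore like that of introns at large. An exon was touched beside the midpoint by 9 odd and 4 even regions.

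Some hosts had an exonic region as well. Of the intronic odd regions, 15 lay in a gene with an exonic odd region (7.89%, 4.84 to 12.6), and 2 of the 15 counted through Gm20388 alone, a gene model that spans 4.43 Mb of chromosome 8. Over all protein-coding gene names, 5.70% had an exonic odd region, a share inside that interval, although it counts genes and not regions. Among the others were Runx1, Notch3, which encodes a Notch receptor, Iqgap1, a scaffold of the actin cytoskeleton, Plxnb2, a semaphorin receptor, and Filip1l, with 1 exonic odd region each. Of the intronic even regions, 2 lay in a gene with an exonic even region (3.23%, 0.889 to 11), and 1 of these was in the lincRNA gene Gm16869. Over all protein-coding gene names the even share was 0.742%. Of the genes named here, Notch3, Iqgap1 and Plxnb2 were chosen after their values were seen. Intronic regions were also farther from their neighbours than exonic ones, and in this they were like intergenic ones. The nearest region of the same list was at a median of 257660 bp for intronic and 59862 bp for exonic odd regions, and at 2273289 and 895447 bp in the even pool. For intergenic regions the median was 272970 bp in the odd and 2043605 bp in the even pool.

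In the odd pool 6 genes held 2 intronic regions, and in the even pool none did. Among them were 1700030G06Rik with its Pkm2 pair, Brwd3, Gm20388, Rad51l1 and Zhx2. In Rad51l1, a gene of DNA repair, both regions were AGAGGC repeats 245995 bp apart, with scores of 6 and 5. The gaps were 456 bp in Brwd3, 3915 bp in Zhx2 and 238899 bp in Gm20388, with scores of 4 and 4, 4 and 4, and 7 and 8. Besides the 12 overlapping loci, 3 genes held intronic regions of both pools that did not overlap, 1700030G06Rik at 141130 bp, 4933407C03Rik at 76133 bp and Plekha5 at 22805 bp.

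Genes of the matrix, adhesion, cytoskeleton and muscle, of imprinted and nuclear RNAs and of small RNA hosts, 178 in all with the genes that the study names, were looked up among the hosts. An intronic odd region was present in 1 of them (0.562%), near the 0.782% of all protein-coding gene names, and an intronic even region in none, against 0.256% of all. Exonic regions were present in 84 of the list genes in the odd pool (47.2%) and in 36 in the even pool (20.2%), against 5.70% and 0.742% of all protein-coding gene names. The lists were chosen with results of these data known, so these counts are no independent evidence. The 1 gene was Itga6, which encodes integrin alpha 6, a laminin receptor. Its region in intron 2 of 30 had a score of 8 and held 70 bp of perfect AGAGGC repeat. No intronic region lay in PAM, Timp2, Vim, Macf1, Ubb, Pttg1ip or Ctnnb1.

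On chromosome 4, where PAM lies from 88696212 to 88730518, there were 11 intronic odd and 2 intronic even regions. The odd one nearest to PAM was in Fggy at chr4:95286975-95287228, 6.56 Mb away, and the nearest even one was in Gm12446 at chr4:46336985-46337232, 42.4 Mb away. Both were single-copy regions at the lowest score of 4.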

How the data were processed

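ASCs were used for ChIRP-seq of PAM with 2 probe pools and 1 library for each. Per the labels and the methods, the authors used Bowtie2 to place unique reads on mm9 and MACS2 to call peaks, versions not given in the sources used here. They deposited a list per pool of regions of fixed width with a score, a whole number of unstated unit. Their read counts and depth are unknown. The lists were used unfiltered. The paper reports fewer DNA regions bound by PAM than either list holds. How its set relates to the lists is not stated there, so the lists are not the study's own set of binding sites.

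Regions were classed by midpoint against GENCODE M1. Repeats were the longest perfect stretch of a unit of 1 to 6 bases. Words of 31 letters were counted in mm9 on both strands. Megablast (BLAST 2.17.0) gave matches to transcripts and to the genome. Genome windows of 254 bp without unknown bases were tallied once. Wilson intervals are at 95%. The scripts, in Python 3.11.15, NumPy 2.4.6, SciPy 1.17.1 and numba 0.67.0 with matplotlib 3.10.9, were checked on simulated data.

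The members and the gene lists were chosen with earlier results of these data known. Named genes were those of the 5 highest scores per pool, ties kept, those of loci in both pools, those with 2 or more intronic regions of a pool, the genes named by the study, those nearest to PAM, and hosts in the lists. Others were named after their values were seen. Some genes and their regions are not reported here by name. Alternatives were other class rules, score and distance limits, repeat lengths, copy numbers and match filters.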

Additional observations from a re-analysis of the deposited data

How the results depend on the processing

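Of 96 values recomputed under an alternative, 69 stayed within the limits set for them and 27 moved. Most of the moves followed from the smaller number of regions in the alternative. With scores above the lowest, 84 odd and 14 even intronic regions remained (5.60% and 7.49% of the lists), with median scores of 6 and 5.5. Of these, 46 and 7 had a repeated sequence, 34 and 4 a tandem repeat, 9 and 1 a transcript match, and 9 and 1 lay in a gene with an exonic region. In the odd pool 23 held an AGAGGC repeat. With regions more than 500 bp from an exon, the shares were 6.91% and 14.2%, 9 and 1 lay in a gene with an exonic region, and 1 even region matched a transcript. With whole regions off exons, 1 even region lay in a gene with an exonic region. With protein-coding genes only, that was also 1, and 42 odd and 5 even regions matched a transcript, since exons of other gene types then counted as intron. Without the low-complexity filter, 66 and 11 matched. With a limit of 10 copies for a repeated sequence, 49 odd regions remained. The alternatives for the tandem and AGAGGC repeats were chosen after seeing the data. In the even pool no alternative gave an AGAGGC repeat. An alternative with soft-masked repeats was not run, because the genome used held 0 soft-masked bases in the regions. No paired analysis was possible because the odd and the even pool were sequenced as 1 library each. With starts read as 1-based, copies, repeats and matches were kept from the 0-based reading. Unknown depth and a single library per pool limit all shares.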
